A study of Mus musculus with 20 samples.

Results

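The choroid plexus epithelium genes described here are Otx2, Ttr, Kl, Wfikkn2, Sostdc1, Prlr, Aqp1, Clic6, Folr1 and Steap1. They were listed by name as markers of that epithelium. The rule uses no measured value, but the list was drawn up when earlier results of these data were known. All 10 are among the 24528 genes of the table, and all 10 passed the filter on genes without variation. The libraries were made from total RNA of dissected neocortex or hippocampus of mice of 18 months, after ribosomal RNA had been depleted. The mice were either TDP-43wt (labelled TDP43-WT) or TDP-43KQ/KQ (labelled TDP43-KQ), which carry on both alleles of endogenous Tardbp a K145Q substitution that mimics acetylation of TDP-43. The line was made by genome editing of C57BL/6J zygotes, and no promoter, Cre or transgene is involved. The neocortex gave 5 TDP-43wt libraries (3 females, 2 males) and 6 TDP-43KQ/KQ libraries (3 females, 3 males), and the hippocampus gave 4 TDP-43wt libraries (3 females, 1 male) and 5 TDP-43KQ/KQ libraries (3 females, 2 males).

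The choroid plexus is a folded sheet of epithelial cells over a vascular stroma that hangs in the ventricles of the brain and secretes the cerebrospinal fluid. Its cells carry ion and water transporters, take up vitamins and hormones from blood, and release carrier proteins into the fluid. The choroid plexus of the lateral ventricle lies against the hippocampus along the choroidal fissure, so dissected hippocampus can hold variable amounts of it, while neocortex lies farther away. Most of these markers are made little by neurons and glia, and Ttr is among the most abundant transcripts of the epithelium.

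The 10 genes lie on 9 chromosomes in the GRCm38.p6 annotation of RefSeq, with Steap1 and Kl both on chromosome 5. Their upstream sequences are shown for 3 genes whose values move together below, before 1 annotated start each. Otx2 and Prlr have other annotated starts too, and which start is used in these tissues was not measured. The promoter table of RefSeq matched 6 of the 10 genes: Otx2, Kl, Wfikkn2, Prlr, Aqp1 and Steap1. Upstream sequences of Ttr, Folr1, Clic6 and Sostdc1 were not analysed here. Each line gives the 250 bases before an annotated start, 5′ to 3′ on the strand of the gene, and capitals mark a match to TAATTA, a palindromic homeodomain core that reads the same on both strands. The windows are chr14:48667645-48667894 (minus strand) for the homeobox gene Otx2, chr5:150952357-150952606 (plus strand) for the co-receptor gene Kl and chr15:10176988-10177237 (plus strand) for the prolactin receptor gene Prlr.
Otx2: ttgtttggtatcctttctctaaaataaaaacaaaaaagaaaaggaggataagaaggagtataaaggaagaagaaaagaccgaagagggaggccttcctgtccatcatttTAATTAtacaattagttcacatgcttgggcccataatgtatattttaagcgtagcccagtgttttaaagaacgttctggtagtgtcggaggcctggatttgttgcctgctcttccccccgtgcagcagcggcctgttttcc
Kl: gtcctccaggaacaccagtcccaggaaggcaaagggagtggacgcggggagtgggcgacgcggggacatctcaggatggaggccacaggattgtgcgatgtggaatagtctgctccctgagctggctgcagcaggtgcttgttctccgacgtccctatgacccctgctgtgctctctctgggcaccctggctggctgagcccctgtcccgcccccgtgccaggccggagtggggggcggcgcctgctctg
Prlr: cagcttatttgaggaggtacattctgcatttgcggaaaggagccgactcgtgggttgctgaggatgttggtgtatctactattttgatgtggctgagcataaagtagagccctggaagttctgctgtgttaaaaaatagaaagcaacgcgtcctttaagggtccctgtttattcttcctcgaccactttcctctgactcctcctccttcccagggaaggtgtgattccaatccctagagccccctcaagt
TAATTA stands at position -141 of the Otx2 window and in neither of the other windows shown. Over all 32851 windows of this length it was present in 4.84%, and over the 11 windows of the matched genes in 2. TAATCC, the core bound by OTX2 and other bicoid-type homeodomains, was searched on both strands, stood in 6.25% of all windows and in 1 of these 11, and does not overlap TAATTA. A match is a string of letters in a window and not a site.

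Each deposited value is on a log2-like scale and relative to the mean of the 6 neocortex TDP-43KQ/KQ libraries for that gene, so that 0 stands for this mean. Such values hold no level of expression and no depth, and the precision of each comparison comes from the spread between libraries. The effects of sex and litter were removed from the values over both regions together, which leaves marks on some libraries. Litter 1 is represented by TDP-43KQ/KQ female 2 of the neocortex and of the hippocampus, and after the removal their deviations from their group means are equal and opposite for every gene, so that the place of either library within its group cannot be read from these values alone. Litter 2 is represented by neocortex TDP-43wt male 1 alone, whose deviation is 0 by construction. Differences between libraries of the same sex and litter are not touched by the removal. Tardbp, the edited gene, lay between -1.07 and -0.90 in the neocortex TDP-43wt libraries and between -0.10 and 0.13 in those of TDP-43KQ/KQ, and in the hippocampus between -1.03 and -0.62 and between -0.16 and 0.16. The groups did not overlap, and no library goes against its genotype label. Of 8 genes listed for hippocampal neurons, 6 were called higher in the hippocampus than in the neocortex in TDP-43wt and 8 in TDP-43KQ/KQ. Of 8 genes listed for neocortical neurons, 6 were called lower in the hippocampus and 2 higher in each genotype. Which neocortex and hippocampus libraries come from 1 mouse is not stated in the labels, but the 6 female libraries of each region match in genotype, number and litter. Where no source says that libraries of 1 region are from separate mice, p-values cover only the spread between these libraries.

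Otx2, the homeobox transcription factor that specifies the epithelium and is kept on in it (chr14:48656781-48667644), varied over 2.34 log2 units between hippocampus libraries and over 1.18 between neocortex libraries. In the hippocampus its values were -0.04, 0.41 and 0.66 in TDP-43wt females 1 to 3 and 1.20 in TDP-43wt male 1. In TDP-43KQ/KQ they were 2.30, 0.57 and 1.29 in females 1 to 3 and 1.49 and 1.33 in males 1 and 2. The highest library was TDP-43KQ/KQ female 1, and the groups overlapped because TDP-43wt male 1 stood above TDP-43KQ/KQ female 2, the library of litter 1. The other TDP-43KQ/KQ libraries, at 1.29 to 2.30, were all above TDP-43wt male 1. In the neocortex the lowest, median and highest values were -0.29, -0.18 and 0.06 in TDP-43wt and -0.36, -0.14 and 0.82 in TDP-43KQ/KQ.

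Ttr encodes transthyretin, the thyroxine and retinol carrier that the choroid plexus secretes in large amounts (chromosome 18), and it had the widest range of the 10 genes in both regions. In the hippocampus TDP-43wt libraries it stood at -0.22, 1.86 and 2.40 in females 1 to 3 and at 3.94 in male 1. In the hippocampus TDP-43KQ/KQ libraries it stood at 6.61, -0.36 and 3.38 in females 1 to 3 and at 4.29 and 4.24 in males 1 and 2. The lowest and the highest of the 9 libraries were thus both TDP-43KQ/KQ, the lowest being that of litter 1. In the neocortex Ttr ran from -1.43 over a median of 0.28 to 2.85 in TDP-43wt and from -2.54 over -0.34 to 3.99 in TDP-43KQ/KQ, a range of 6.53 against 6.97 in the hippocampus. The highest neocortex value belonged to TDP-43KQ/KQ female 2, the library of litter 1, and the highest TDP-43wt value there to female 1.

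Of the other secreted proteins, Wfikkn2 is a binding protein for growth and differentiation factors (chr11:94235951-94247793), and Sostdc1 is an antagonist of bone morphogenetic protein and Wnt signals (chr12:36314169-36318452). Kl encodes the klotho co-receptor for FGF23, part of which is shed into the fluid (chr5:150952607-150993817). Wfikkn2 stood at -0.30, -0.20 and -0.17 in hippocampus TDP-43wt females 1 to 3 and at 0.03 in male 1. In hippocampus TDP-43KQ/KQ libraries it stood at 1.51, 0.40 and 0.54 in females 1 to 3 and at 0.99 and 0.56 in males 1 and 2. Every hippocampus TDP-43KQ/KQ library was above every TDP-43wt library for Wfikkn2, and for none of the other 9 genes. Over all 18310 genes tested in the hippocampus the same held for 4.1%. Counted without the library of litter 1, after seeing the data, it held for 2 members, Wfikkn2 and Otx2, beside 5.41% of all genes. In the neocortex Wfikkn2 ran from -0.28 to -0.09 in TDP-43wt and from -0.39 to 0.40 in TDP-43KQ/KQ, and no member had all TDP-43KQ/KQ libraries above all TDP-43wt ones there, as against 4.22% of the 18329 genes tested (0 members and 5.11% without litter 1). Kl ranged from 1.04 to 2.79 in hippocampus TDP-43wt and from 1.16 to 4.43 in TDP-43KQ/KQ, and was the one member above 0 by at least 1 unit in every hippocampus library. Sostdc1 ranged from -0.01 to 1.56 and from 0.37 to 2.82.

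Among the receptors, Prlr binds prolactin and placental lactogen (chr15:10177238-10349190) and Folr1 carries folate into the fluid (chr7:101858331-101870788). Prlr stood at 0.11, 0.40 and 1.17 in hippocampus TDP-43wt females 1 to 3 and at 2.21 in male 1. It stood at 4.14, 0.59 and 2.05 in TDP-43KQ/KQ females 1 to 3 and at 2.59 and 2.73 in males 1 and 2. The order of the 9 libraries was close to that of Ttr, with TDP-43KQ/KQ female 1 on top. Folr1 ranged from -0.28 to 1.66 in hippocampus TDP-43wt and from 0.26 to 2.99 in TDP-43KQ/KQ.

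The remaining genes act at the membrane. Aqp1 is the water channel of the apical face (chr6:55336299-55348555), Clic6 is a chloride intracellular channel protein (chr16:92498147-92541241) and Steap1 belongs to a family of metalloreductases (chr5:5736322-5749317). In the hippocampus Aqp1 ranged from -0.38 to 1.25 in TDP-43wt and from -0.09 to 2.35 in TDP-43KQ/KQ, Clic6 from -0.68 to 1.84 and from 0.15 to 3.25, and Steap1 from -0.07 to 1.02 and from 0.27 to 1.83. Each of the 3 had its highest value in TDP-43KQ/KQ female 1. This library was the highest of the 9 hippocampus libraries for all 10 genes, as it was for 15.8% of all genes tested, a count made after the values were seen.

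**Figure D1:**
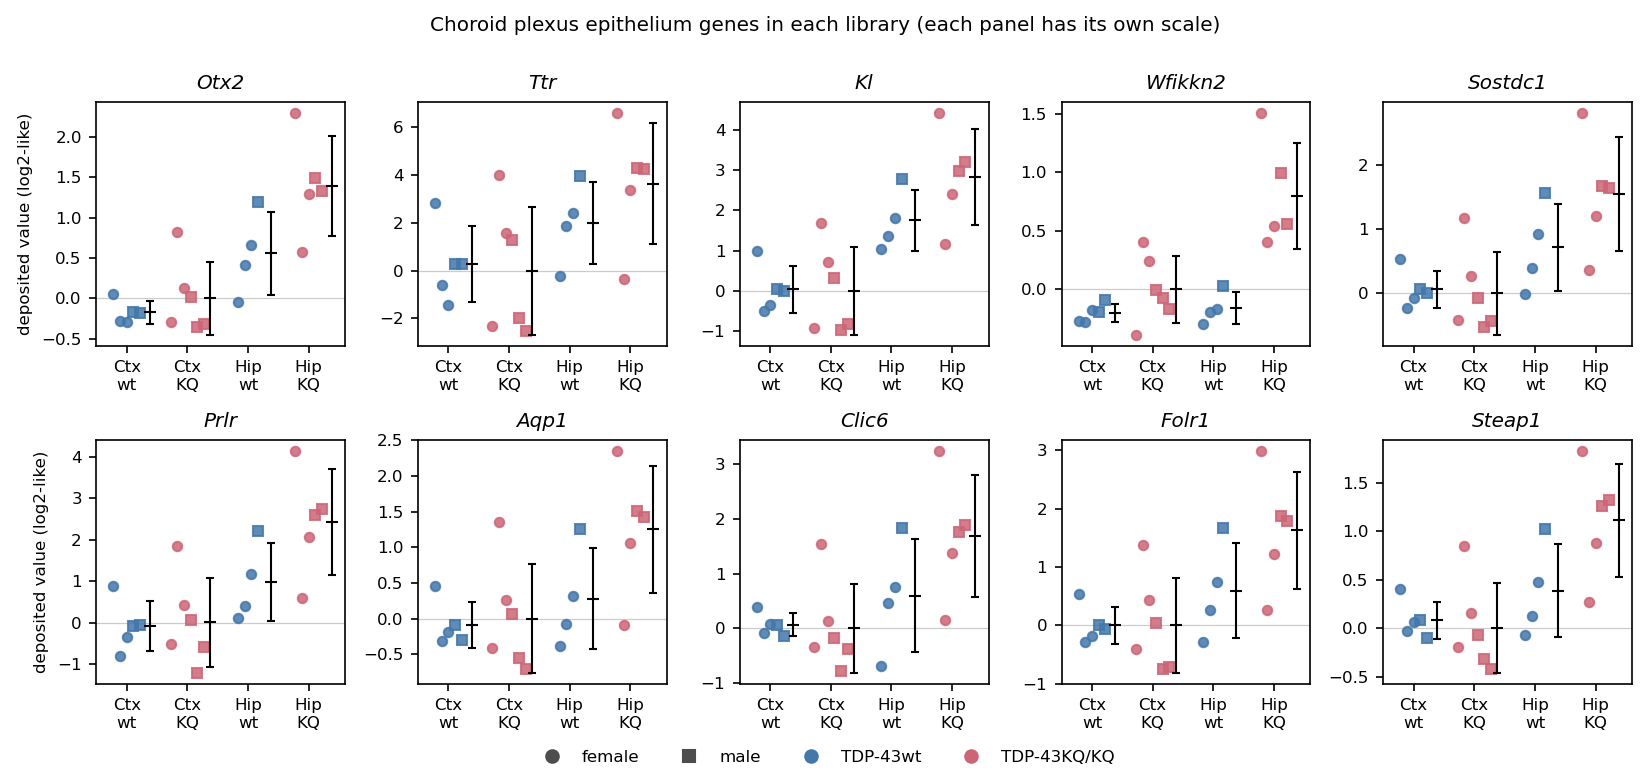
Deposited value (log2-like, 0 being the neocortex TDP-43KQ/KQ mean) of each gene in each of the 20 libraries; circles are females, squares males, blue TDP-43wt and red TDP-43KQ/KQ, with group mean and SD in black (Ctx, neocortex; Hip, hippocampus; vertical scales differ). In the hippocampus TDP-43KQ/KQ female 1 is the highest point of all 10 panels, and in the Wfikkn2 panel the hippocampus groups do not overlap.

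The mean of the 10 genes in a library, called the choroid plexus index here, describes how these genes stood in each library. In the neocortex it was 0.68, -0.34 and -0.29 in TDP-43wt females 1 to 3 and 0.00 and -0.06 in males 1 and 2. In neocortex TDP-43KQ/KQ it was -0.62, 1.5 and 0.43 in females 1 to 3 and 0.15, -0.75 and -0.71 in males 1 to 3. The lowest library of the region was TDP-43KQ/KQ male 2. The highest was TDP-43KQ/KQ female 2 of litter 1, whose place within its group cannot be read, and the next was TDP-43wt female 1. In the hippocampus the index was -0.08, 0.50 and 0.91 in TDP-43wt females 1 to 3 and 1.75 in male 1. In TDP-43KQ/KQ there it was 3.22, 0.33 and 1.54 in females 1 to 3 and 2.04 and 2.01 in males 1 and 2. All but 1 of the hippocampus libraries were above 0. The mean was 0.77 ± 0.77 (SD, n = 4) in TDP-43wt and 1.83 ± 1.04 (SD, n = 5) in TDP-43KQ/KQ, and the groups overlapped.

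The genes varied together from library to library. Over the 9 hippocampus libraries each of 9 members had a Pearson r between 0.958 (Ttr) and 0.997 (Folr1) with the mean of the 9 others, and Wfikkn2 had 0.823 (Spearman rho 0.85). Over the 11 neocortex libraries r ran from 0.911 (Clic6) to 0.991 (Folr1), and Wfikkn2 had 0.67 (rho 0.391). These correlations are descriptions without a test, since the libraries share genotype, litter and the removal of sex and litter. Without the libraries farthest from the median, TDP-43wt female 1 and TDP-43KQ/KQ female 1, the hippocampus r of Wfikkn2 was 0.552, and that of the other genes was at least 0.899. In the neocortex, without TDP-43wt female 1 and TDP-43KQ/KQ female 2, r was lower for Clic6 (0.728), Steap1 (0.811), Prlr (0.883) and Wfikkn2 (0.648), and at least 0.91 for the other genes. Outside all lists, the genes most like the index over the 9 hippocampus libraries were Wdr72 (r = 0.996), Lbp (0.994), Drc7 (0.993), Slc16a8 (0.991), Rd3 (0.988), Slc28a3 (0.987), Rrh (0.987), Rbm47 (0.986), Tmprss11a (0.986) and Wdr86 (0.986). Of all non-members, 294 had an r above 0.9 in the hippocampus and 63 in the neocortex.

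In the hippocampus the fitted difference between genotypes was positive for all 10 genes, but none passed the test. As the tissue is bulk, a difference in the number of cells of a type and one in RNA per cell cannot be told apart. limma with genotype, sex and litter as terms called 0 of the 10 at a Benjamini-Hochberg adjusted p of 0.05, beside 0.0% of all 18310 genes (0 genes). Tardbp, whose genotype groups did not overlap, was not called either, so failing this test does not show that a gene is unchanged. At an unadjusted p under 0.05 were all 10 members and 2224 of all genes. The median log2 fold change of the members (TDP-43KQ/KQ minus TDP-43wt) was 1.49, and that of all genes was -0.0047. Ttr had the largest absolute log2 fold change of all genes tested, 3.06 ± 1.11 (SE, adjusted p = 0.357). Prlr followed within the list with 2.17 ± 0.638 (adjusted p = 0.294), and Kl with 1.77 ± 0.55 (adjusted p = 0.305). Wfikkn2, at 1.25 ± 0.219, had the smallest SE and the lowest adjusted p of the list, 0.251. The smallest estimate was that of Steap1, 1.04 ± 0.293 (adjusted p = 0.287). Clic6 (1.67), Folr1 (1.58), Aqp1 (1.40), Sostdc1 (1.37) and Otx2 (1.16) lay between, with adjusted p from 0.306 to 0.39.

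This estimate rests on 2 comparisons within a litter, since the other hippocampus libraries add nothing to it. In litter 6, TDP-43KQ/KQ female 1 was compared with TDP-43wt females 1 and 2. All 10 genes were higher there, by 1.76 (Wfikkn2) to 5.79 (Ttr), with a median of 2.81. In litter 5, TDP-43KQ/KQ males 1 and 2 were compared with TDP-43wt male 1. There 9 genes were higher and Clic6 was lower by a difference of -0.01, the median was 0.24, and the largest difference was that of Wfikkn2, 0.75, followed by Prlr with 0.45 and Ttr with 0.33. Thus Wfikkn2 had the smallest difference of the list in litter 6 and the largest in litter 5. Without TDP-43KQ/KQ female 1 the median over the members was 0.24 and Clic6 was at -0.01. Without TDP-43wt male 1 it was 2.81, and 8 members were among 128 genes called, with TDP-43KQ/KQ then represented by that 1 female in the estimate.

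In the neocortex 8 of the 10 estimates were below 0, and none passed the test. limma called 0 of the 10, beside 0.0382% of all 18329 genes (7 genes), and at an unadjusted p under 0.05 were 0 members and 2503 genes. The median log2 fold change was -0.18, and it ran from -0.50 (without TDP-43wt female 3) to 0.09 (without TDP-43KQ/KQ female 1) as libraries were left out. Ttr was at -0.93 ± 1.23 (SE, adjusted p = 0.744), Kl at -0.31 ± 0.453 (adjusted p = 0.767), Wfikkn2 at 0.06 ± 0.0845 (adjusted p = 0.761) and Otx2 at 0.03 ± 0.128 (adjusted p = 0.918). The comparisons of libraries of the same litter and sex ran the other way from the hippocampus. TDP-43KQ/KQ female 1 of litter 6 was lower than TDP-43wt females 1 and 2 for all 10 genes, by a median of -0.51, and the TDP-43KQ/KQ males of litter 5 were lower than TDP-43wt male 2 for all 10, by a median of -0.46. Ttr differed most, by -3.46 and -2.55, and Wfikkn2 least, by -0.11 and -0.04. Litter 4 held TDP-43KQ/KQ male 1 and TDP-43wt female 3, which differ in sex too, with Ttr at 1.30 and -1.43. Clic6 (-0.18 and 0.08) and Steap1 (-0.07 and 0.06) went the other way in that pair. The remaining genes went with Ttr, Sostdc1 by little (-0.07 and -0.08).

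**Figure D2:**
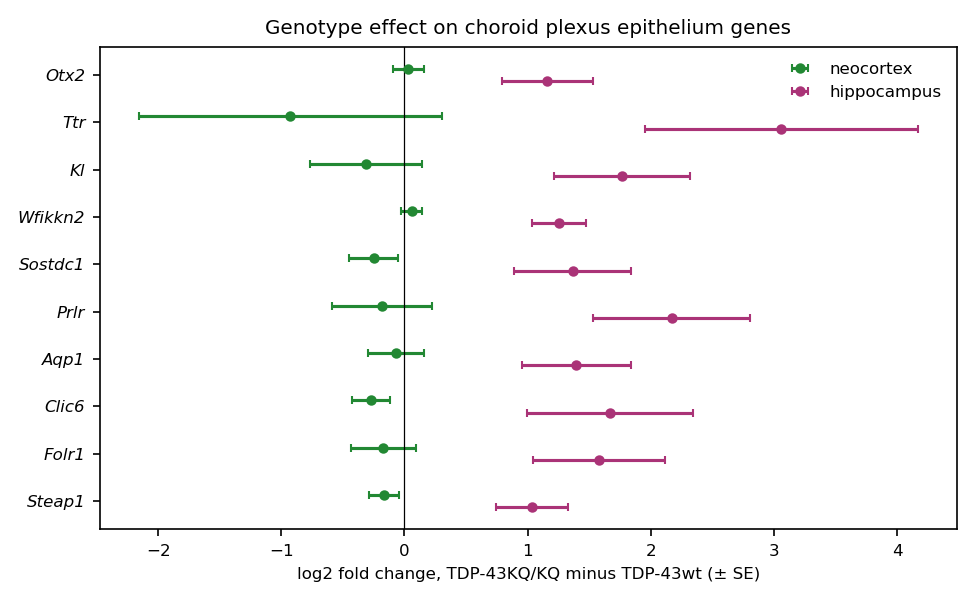
Log2 fold change of each gene (TDP-43KQ/KQ minus TDP-43wt, limma with genotype, sex and litter) with its standard error, in neocortex (green) and hippocampus (purple). All 10 hippocampus estimates lie above 0, at 1.04 to 3.06, and the neocortex estimates lie between -0.93 and 0.06; none passed the test.

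**Figure D3:**
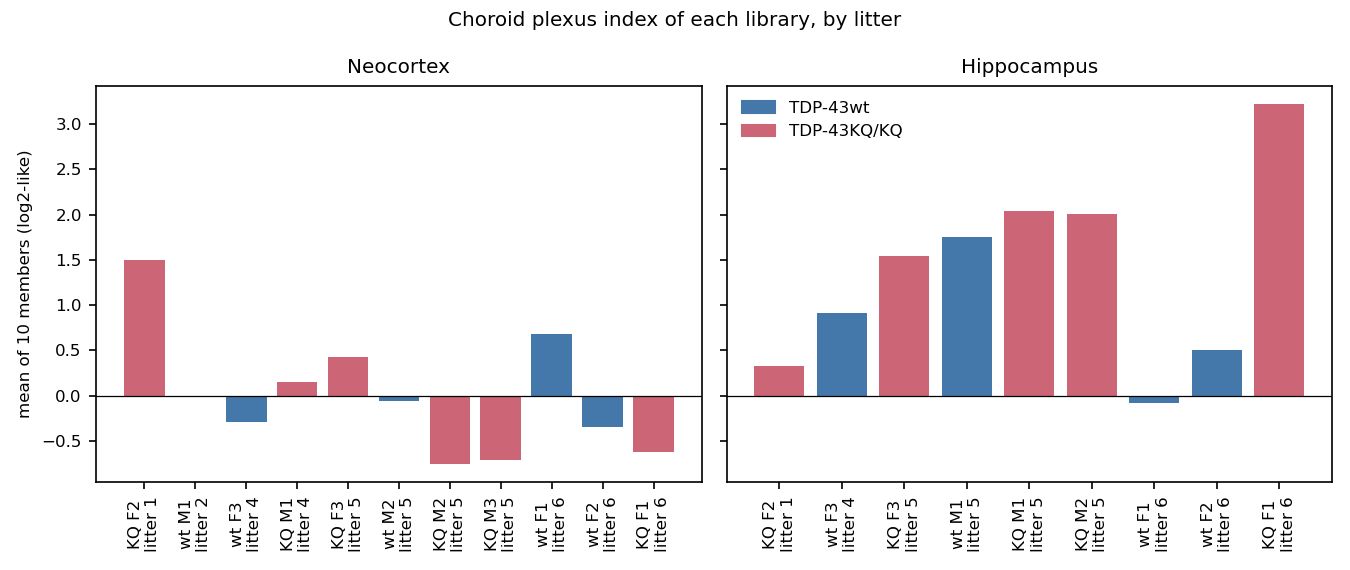
Choroid plexus index (mean of the 10 genes, log2-like) of each library, ordered by litter within each region, blue for TDP-43wt and red for TDP-43KQ/KQ (F, female; M, male). In litter 6 the bars fall from TDP-43wt female 1 at 0.68 to TDP-43KQ/KQ female 1 at -0.62 in the neocortex and rise from -0.08 to 3.22 in the hippocampus, and in litter 5 the 3 hippocampus males stand at 1.75, 2.04 and 2.01.

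The libraries of litter 6 had opposite orders in both regions. For 9 of the 10 genes, Prlr being the exception, the neocortex values fell from TDP-43wt female 1 over TDP-43wt female 2 to TDP-43KQ/KQ female 1, while the hippocampus values rose in that order. This order was picked after the values were seen; 2.31% of the 17863 genes tested in both regions show it. Ttr was at 2.85, -0.59 and -2.33 in these neocortex libraries and at -0.22, 1.86 and 6.61 in those of the hippocampus. If the libraries with the same labels share a mouse, the index of the hippocampus minus that of the neocortex was -0.77, 0.84 and 1.20 in TDP-43wt females 1 to 3 and 3.85, -1.17 and 1.11 in TDP-43KQ/KQ females 1 to 3. The hippocampus was thus higher in 4 of 6 female pairs and lower in 2, with 1 of the lower pairs in each genotype. The 8.94 log2 units of Ttr in the pair of TDP-43KQ/KQ female 1 were the widest of these differences.

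When both regions entered 1 fit with shared sex and litter terms, no member was called for genotype in either region. In the hippocampus 0 of 10 were called, beside 0.386% of 17863 genes (69 genes), with 2 members and 2650 genes at an unadjusted p under 0.05. The median was 1.00, or 0.31 without hippocampus TDP-43KQ/KQ female 1 and 1.65 without TDP-43wt male 1. Wfikkn2 came nearest with 0.96 ± 0.222 (SE, adjusted p = 0.0771), ahead of Otx2 with 0.84 ± 0.357 (adjusted p = 0.297). In the neocortex 0 of 10 were called, beside 0.224% (40 genes), with 0 members and 2581 genes at an unadjusted p under 0.05, and the median was -0.02 (-0.27 to 0.27 as libraries were left out, at the ends without TDP-43KQ/KQ females 2 and 1 of the neocortex). Wfikkn2 in the hippocampus passed without either library of litter 1 (1.08 ± 0.197, adjusted p = 0.0311) and when each region had its own sex and litter terms (1.25 ± 0.192, adjusted p = 0.0326). Without the hippocampus library of litter 1, 93 of the 17863 genes were called in all. Without hippocampus TDP-43KQ/KQ female 1 Wfikkn2 did not pass (0.58 ± 0.158, adjusted p = 0.407). This fit takes the libraries of both regions as independent, and with the female mouse as a random effect Wfikkn2 was at 0.93 ± 0.248 (adjusted p = 0.142).

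In the fit of both regions, the epithelial genes of TDP-43KQ/KQ mice were on average higher in the hippocampus than in the neocortex. That fit takes the libraries as independent. Between female libraries with the same labels, all 10 genes were higher in the hippocampus for females 1 and 3, and 0 for female 2. limma called 9 of the 10 higher, beside 17.2% of 17863 genes called higher and 35.4% called in either direction. The largest of these were Kl, by 2.84 ± 0.62 (SE, adjusted p = 0.00224), Prlr, by 2.42 ± 0.655 (adjusted p = 0.00942), Clic6, by 1.69 ± 0.551 (adjusted p = 0.0265) and Folr1, by 1.63 ± 0.504 (adjusted p = 0.0203). Otx2 was higher by 1.40 ± 0.3 and had the lowest adjusted p, 0.00199, and Wfikkn2 was higher by 0.80 ± 0.187 (adjusted p = 0.00363). Ttr, at 3.63 ± 1.45, did not pass (adjusted p = 0.0651), and its libraries spread the most. Without hippocampus TDP-43KQ/KQ female 1 the count was 6, with Folr1, Clic6 and Aqp1 no longer called, among 5113 genes called in all. Leaving out other libraries gave 7 to 10 members, and over all libraries left out the genes called numbered 4978 to 6539.

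Within TDP-43wt mice limma called 0 of the 10, beside 28.2% of 17863 genes (5041 genes), and at an unadjusted p under 0.05 were 1 member, Kl, and 6936 genes. All 10 estimates were above 0 with a median of 0.63. Without hippocampus TDP-43wt male 1 the median was 0.20, and Clic6, Wfikkn2 and Aqp1 were below 0. Without hippocampus TDP-43wt female 1 it was 0.94. Kl was at 1.71 ± 0.705 (SE, adjusted p = 0.0847) and Ttr at 1.71 ± 1.65 (adjusted p = 0.475), and Wfikkn2 was at 0.04 ± 0.213 (adjusted p = 0.905). Without either library of litter 1, Kl (adjusted p = 0.0252) and Otx2 (adjusted p = 0.0433) were called. Without that of the hippocampus, 5056 of the 17863 genes were called in all.

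Whether genotype acted differently in the regions was tested as the hippocampus effect minus the neocortex effect, each region having its own terms for sex and litter. limma called 0 of the 10, beside 0.0% of 17863 genes (0 genes), and at an unadjusted p under 0.05 were 9 members and 1654 genes. The median difference was 1.68, with Ttr at 3.99 ± 2.1 (SE, adjusted p = 0.616), Prlr at 2.36 ± 0.883 (adjusted p = 0.427), Kl at 2.08 ± 0.861 (adjusted p = 0.49) and Wfikkn2 at 1.20 ± 0.251 (adjusted p = 0.328). With the female mouse as a random effect, an alternative chosen after seeing the data, 8 members were among 855 genes called, Ttr and Kl being the others. As single libraries were left out, that count ran from 0 to 10, beside 0 to 5319 of all genes.

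Wfikkn2 was then set against the other 9 genes, a comparison chosen after its values were seen. At a like mean of the 9 others, 1.94 in hippocampus TDP-43wt male 1 and 2.16 and 2.18 in TDP-43KQ/KQ males 1 and 2, Wfikkn2 was at 0.03 in the first and at 0.99 and 0.56 in the others. These 3 males are of litter 5. In litter 6, TDP-43KQ/KQ female 1 had 3.42 for the 9 others and 1.51 for Wfikkn2. With the mean of the 9 others as a covariate in the hippocampus fit, added after seeing the data, the difference of Wfikkn2 between genotypes was 0.70 ± 0.194 (SE, adjusted p = 1) in place of 1.25. The median of the 32 other choroid plexus epithelium genes fell from 1.24 to 0.12 in the same fit, which has 2 residual degrees of freedom. In the fit of both regions, with a slope for each, Wfikkn2 went from 0.96 to 0.56 ± 0.181 (adjusted p = 0.734), the median of the 32 genes went from 0.83 to 0.03, and the number of genes called in the hippocampus went from 69 to 5, all of which were among the 69. The covariate also uses degrees of freedom, and its part in that count was not tested. The fall of the 32 genes was largely set in advance and tests no cause. Over the hippocampus libraries 31 of them had an r above 0.9 with the index.

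**Figure D4:**
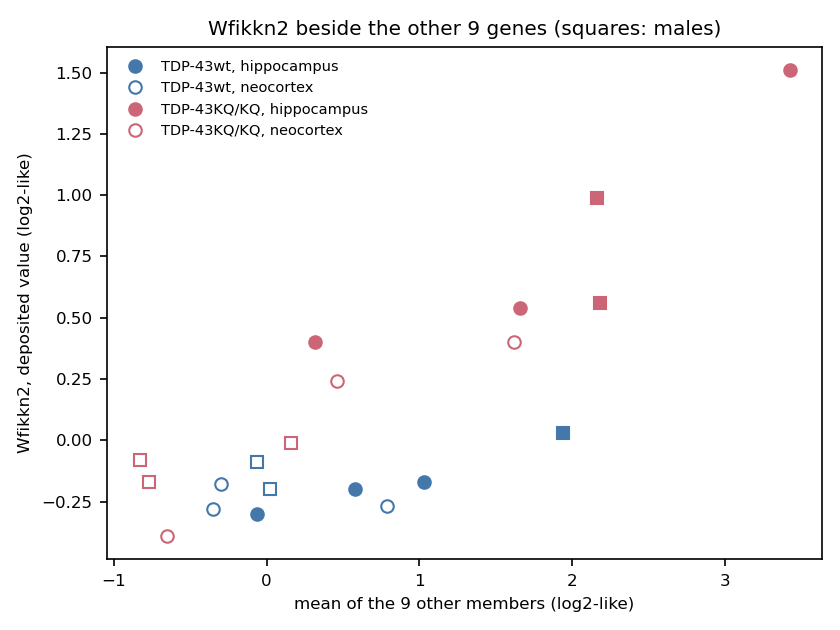
Wfikkn2 (log2-like) against the mean of the 9 other genes (log2-like) in each of the 20 libraries, filled for hippocampus and open for neocortex, blue for TDP-43wt and red for TDP-43KQ/KQ, squares for males. The hippocampus TDP-43wt points stay between -0.30 and 0.03 on the vertical axis over a range of -0.06 to 1.94 on the horizontal axis, while the hippocampus TDP-43KQ/KQ points lie at 0.40 to 1.51.

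For 32 other genes of the epithelium the same comparisons were made. In the hippocampus all 32 estimates were above 0, with a median of 1.24, and limma called none, with 30 at an unadjusted p under 0.05. In the neocortex 10 of 32 were above 0, with a median of -0.06, and none was called, with 2 at an unadjusted p under 0.05. Between the regions 27 of 32 were called higher in the hippocampus in TDP-43KQ/KQ, beside 17.2% of all genes. In TDP-43wt 1 was, the homeobox gene Msx1 (0.52 ± 0.181, adjusted p = 0.0448), beside 13.5% of all genes. In TDP-43KQ/KQ these included F5, the coagulation factor V gene (2.43 ± 0.715, adjusted p = 0.0152), and the potassium channel genes Kcnj13 (2.01 ± 0.602, adjusted p = 0.0168) and Kcne2 (1.52 ± 0.495, adjusted p = 0.0267). They also included the bicarbonate transporter Slc4a5 (1.83 ± 0.617, adjusted p = 0.0309), the tight junction gene Cldn2 (1.78 ± 0.488, adjusted p = 0.0102), the lysophospholipase Enpp2 (1.74 ± 0.603, adjusted p = 0.0358) and Tmem72 (1.83 ± 0.578, adjusted p = 0.0222). The other genes called were 1500015O10Rik, Mfrp, Car12, Abca4, Ace, Cldn1, Col9a3, Col8a2, Trpv4, Krt18, Calml4, Rdh5, Cgnl1, Krt8, Msx1, Car14, Lmx1a, Tmem27, Slco1a5 and Perp, with log2 differences from 0.39 to 1.71. Not called were Col8a1, Sulf1, Slc22a8, Htr2c and Spint2. Over the hippocampus libraries 31 of the 32 had an r above 0.9 with the index, with a median of 0.977 and the lowest value, 0.393, for the organic anion transporter Slc22a8.

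Markers of other cells that lie beside the epithelium were read in the same libraries. None of the listed genes was at 0 throughout. The 13 genes of meningeal and stromal fibroblasts, which fill the core of the choroid plexus and the pia, all had estimates above 0 in the hippocampus, with a median of 0.65 and none called. Their mean ranged from 0.01 to 0.28 in hippocampus TDP-43wt libraries and from 0.24 to 0.90 in TDP-43KQ/KQ, where female 1 was highest. In the fit of both regions 1 of the 13, the proteoglycan gene Lum, was called in the hippocampus (adjusted p = 0.0364). The 14 genes of ependymal cells, the ciliated lining of the ventricles, were also all above 0, with a median of 0.25 and none called, and their mean ranged from 0.13 to 0.43 in TDP-43wt and from 0.14 to 0.70 in TDP-43KQ/KQ. The 10 thalamus genes had a median of 0.04 with 7 above 0, the 11 of brain endothelium 0.03 with 6 above 0, and the 5 of red blood cells -0.13 with 0 above 0. Of 8 hippocampal neuron genes 2 were above 0, with a median of -0.15, and of 8 neocortical neuron genes 0, with a median of -0.19. limma called none of these in the hippocampus, with 21 of the 69 genes of these 7 lists at an unadjusted p under 0.05. The mean of the hippocampal neuron list was 1.19 to 1.27 in hippocampus TDP-43wt libraries and 1.04 to 1.16 in TDP-43KQ/KQ. That of the neocortical neuron list was -0.74 to -0.64 and -0.91 to -0.65, the last being the library of litter 1. How often a list mean separates the genotypes was not counted. Over the hippocampus libraries the list means correlated with the index at r = 0.949 for ependymal cells, 0.619 for fibroblasts, 0.523 for thalamus, -0.192 for endothelium, -0.343 for red blood cells, -0.644 for hippocampal neurons and -0.669 for neocortical neurons (9 libraries, a description). Over the 11 neocortex libraries they ran from -0.472 for neocortical neurons to 0.771 for thalamus and 0.856 for ependymal cells. The part of these cells in the genotype difference was not tested.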

How the data were processed

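Total RNA of mouse neocortex (11 libraries) and hippocampus (9 libraries) was measured. The labels gave the region, genotype, litter and sex of each. Reads were trimmed by the authors (cutadapt) and aligned to mm10 (GRCm38) with STAR 2.5.2b. They estimated transcript abundance with Salmon and used DESeq2 1.34.0 and limma in R 4.1.0. The deposited values are log2-like: a variance-stabilizing transformation by the authors, from which sex and litter were removed, as read from the values over both regions jointly (largest remaining coefficient 4.76e-08). They are relative, so depth is unknown.

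Models were fitted with limma 3.58.1 (statmod 1.5.0) in R 4.3.3. Python 3.11.15 was used for the descriptions and plots (numpy 2.4.6, pandas 2.3.3, matplotlib 3.10.9). lmFit and eBayes of limma were run over all genes with genotype, sex and litter as terms, with residual degrees of freedom of 4 for the neocortex and 3 for the hippocampus. The fit of both regions had 11, and the test of the difference between regions had 7. Adjusted p are those of Benjamini and Hochberg (threshold 0.05). A filter left out genes at 1 value throughout (4383) and genes tied, within 1e-06, in all 3 libraries of a sex and litter. Fitting litter again drops the libraries alone in their litter from the genotype estimate of a region.

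The members, gene lists, tests and alternatives were chosen with earlier results of these data known, so that no pattern here is independent support for them. Named genes are the members, the genes of the list of other choroid plexus epithelium genes that passed in a fit, the 10 genes outside the lists most like the index in the hippocampus, and at most 2 leading genes of each other list. Tardbp was added as the edited gene, and the genes not called between regions were named after their values were seen. The lists come from textbook knowledge and were typed in. Replicate numbers were not taken to pair the genotypes: same-numbered libraries shared a litter in 2 of 5 neocortex and 2 of 4 hippocampus pairs, their deviations from group means correlated at -0.107 to 0.116 and at -0.605 to -0.13, and no library correlated best with its namesake. Coordinates and upstream sequences are those of RefSeq for GRCm38.p6. Windows that overlap a UTR of GENCODE were not shown, nor were the other windows of Prlr and that of Aqp1.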

Additional observations from a re-analysis of the deposited data

How the results depend on the processing

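The limits lie in the small number of libraries within a litter, in values from which sex and litter were already removed, and in the missing depth. Fits that leave out litter, or make it random, treat degrees of freedom spent by that removal as free, so their p-values are too small. The alternatives were genotype as the only term, sex without litter, litter as a random effect, no filter, library medians centred, eBayes with robust estimation and a replicate block. Under all of them the 10 hippocampus estimates stayed above 0 with a median between 0.81 and 1.49. With the replicate block no member was called in either region, though 2693 of all neocortex genes and 31 of all hippocampus genes were, and the medians were 0.92 in the hippocampus and 0.05 in the neocortex. With genotype as the only term 1 member, Wfikkn2, was called in the hippocampus (0.96, adjusted p = 0.0382) among 373 genes. In the fit of both regions, sex and litter terms for each region made it 1 member called in the hippocampus, again Wfikkn2. How many of all genes were called with it is not given here. These terms turned Prlr (-0.19) and Aqp1 (-0.068) in the neocortex. With the female mouse as a random effect (correlation 0.628) 8 members were among 855 genes called for the difference of genotype effects between the regions. Without a filter 6 members were among 5929 of 24528 genes called between the regions in TDP-43KQ/KQ.

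In the neocortex estimates near 0 turned. Prlr and Aqp1 went to 0.086 and 0.086 with genotype as the only term. Folr1, Kl, Prlr and Aqp1 went to 0.054, 0.018, 0.15 and 0.14 with sex without litter, and to 0.065, 0.031, 0.16 and 0.15 with the replicate block. Folr1, Kl, Clic6, Prlr, Sostdc1 and Aqp1 went to 0.089, 0.084, 0.021, 0.20, 0.028 and 0.15 with litter as a random effect. The cause was not tested.

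Leaving out each library in turn moved the hippocampus median from 0.24 (without TDP-43KQ/KQ female 1) to 2.81 (without TDP-43wt male 1). Clic6 ran there from -0.01 to 3.35, and the members called from 0 to 8, beside 0 to 128 of all genes. The median difference between the regions ran from 0.39 to 3.02. Its calls ran from 0 to 8 members, beside 0 to 314 of all genes. With the female mouse as a random effect they ran from 0 to 10, beside 0 to 5319. In the fit of both regions 0 to 1 members were called for genotype in the hippocampus, beside 8 to 137 of all genes. Between the regions in TDP-43wt 0 to 2 members were called, beside 3653 to 5882 of all genes. There Clic6 ran from -0.028 to 1.01, Wfikkn2 from -0.041 to 0.098 and Aqp1 from -0.072 to 0.61. In the neocortex fit Ttr ran from -3.01 to 0.48, Kl from -1.03 to 0.17, Prlr from -0.70 to 0.14, Folr1 from -0.59 to 0.046, Aqp1 from -0.41 to 0.16, Otx2 from -0.17 to 0.15 and Wfikkn2 from -0.073 to 0.15. In the neocortex of the fit of both regions Ttr ran from -1.12 to 0.69, Kl from -0.37 to 0.34, Clic6 from -0.37 to 0.14, Folr1 from -0.27 to 0.18, Sostdc1 from -0.29 to 0.12, Prlr from -0.28 to 0.39, Steap1 from -0.25 to 0.025 and Aqp1 from -0.18 to 0.26.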
